A study of Mus musculus with 8 samples.

Results

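Wide domains of the chromatin remodeller CHD4 in neurons were examined where they lie over CHD4 sites already present in the progenitors. The domains are the peaks of the neuron CHD4 list that are at least 10000 bp wide and overlap 1 or more peaks of the progenitor CHD4 list by at least 1 bp. Of 4599 neuron CHD4 peaks, 619 were this wide and 500 of those met both conditions, which is 10.9% of the list and 7.63 Mb of its 29.2 Mb. The remaining 119 wide peaks had no progenitor peak beneath them, and 2600 narrower neuron peaks did have one. The domains were thus chosen by their width in neurons and their overlap with the progenitor list, and those values are given as description only.

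The cells were wild-type mouse iMOPs (immortalized multipotent otic progenitors), a single cell line with properties of inner ear progenitors. The first state was proliferating, kept with bFGF at 20 ng/ml, and the other held neurons derived from the same line with the CDK2 inhibitor K03861 at 1 µM; they are called progenitors and neurons here. CUT&Tag inserts sequencing adapters into chromatin close to where an antibody is bound, and was run for CHD4, H3K4me3 and p300 and for an IgG control, with 500000 cells and 1 library for each antibody and state. The 6 lists of CHD4, H3K4me3 and p300 peaks were used; IgG was not analysed here, and control levels are therefore missing from the text. The lists do not hold read depth. Each group being 1 library, differences between states or kinds of peak are given without a test, and the 95% intervals on shares (exact, Clopper-Pearson) reflect counting error alone.

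CHD4 is the ATPase of NuRD, a complex that joins nucleosome remodelling to histone deacetylation and works at enhancers and promoters. H3K4me3 marks active promoters, and p300 is an acetyltransferase recruited to enhancers and to many promoters. CHD4 is known to act in neural development, where NuRD takes part in shutting down some genes and in tuning the activity of others.

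The domains differ in what lies at the transcript starts they cover, and 6 promoters show the range. Each is the RefSeq window (GRCm38.p6, the assembly behind mm10) from 250 bases before to 50 bases after an annotated start, written 5′ to 3′ on the strand of the gene. Capitals mark the E-box hexamers CAGCTG and CAGATG, which many bHLH factors bind, and TGGGAA, the core of the RBPJ site in Notch signalling, each searched on both strands. The starts of Dll1 and Tubb3 lay in a peak of all 6 lists. The start of Celsr2 lay in CHD4 and H3K4me3 peaks of both states but in p300 only in neurons, and that of Cbfa2t3 in CHD4 peaks of both states with H3K4me3 and p300 only in neurons. The start of Efna3 was outside progenitor CHD4 and inside neuron CHD4, with H3K4me3 in both states. The start of Neurod2 was likewise covered by CHD4 only in neurons, with neither mark in either state.
Dll1, chr17:15376883-15377182, minus strand: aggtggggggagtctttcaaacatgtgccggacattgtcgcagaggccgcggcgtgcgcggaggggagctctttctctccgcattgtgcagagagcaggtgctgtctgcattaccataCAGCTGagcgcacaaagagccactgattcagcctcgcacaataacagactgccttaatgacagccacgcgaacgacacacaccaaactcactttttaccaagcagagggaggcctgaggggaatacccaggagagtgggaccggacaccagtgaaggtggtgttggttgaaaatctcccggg
Tubb3, chr8:123411303-123411602, plus strand: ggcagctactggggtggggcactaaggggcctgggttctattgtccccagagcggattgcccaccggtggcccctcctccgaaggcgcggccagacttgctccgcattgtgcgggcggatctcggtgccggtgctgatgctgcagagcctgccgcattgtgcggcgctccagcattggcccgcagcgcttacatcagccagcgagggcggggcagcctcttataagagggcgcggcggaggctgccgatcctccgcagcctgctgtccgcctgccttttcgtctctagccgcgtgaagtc
Celsr2, chr3:108415530-108415829, minus strand: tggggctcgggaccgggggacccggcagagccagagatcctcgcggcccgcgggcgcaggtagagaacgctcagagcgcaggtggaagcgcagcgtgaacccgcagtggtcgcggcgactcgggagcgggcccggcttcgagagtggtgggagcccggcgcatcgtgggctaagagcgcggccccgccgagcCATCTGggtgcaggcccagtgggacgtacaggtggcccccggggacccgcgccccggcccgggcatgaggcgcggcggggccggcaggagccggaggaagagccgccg
Cbfa2t3, chr8:122678126-122678425, minus strand: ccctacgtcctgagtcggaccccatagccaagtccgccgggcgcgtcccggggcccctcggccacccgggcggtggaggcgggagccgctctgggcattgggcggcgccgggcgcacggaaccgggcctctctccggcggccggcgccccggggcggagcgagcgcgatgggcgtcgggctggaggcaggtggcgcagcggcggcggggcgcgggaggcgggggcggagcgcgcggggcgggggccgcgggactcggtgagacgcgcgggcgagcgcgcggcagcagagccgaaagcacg
Efna3, chr3:89322890-89323189, minus strand: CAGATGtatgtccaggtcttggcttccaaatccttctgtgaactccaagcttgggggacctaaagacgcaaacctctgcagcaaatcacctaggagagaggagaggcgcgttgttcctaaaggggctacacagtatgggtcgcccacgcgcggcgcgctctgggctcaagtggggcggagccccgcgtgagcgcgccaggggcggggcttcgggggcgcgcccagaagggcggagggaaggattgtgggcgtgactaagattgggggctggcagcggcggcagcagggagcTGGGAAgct
Neurod2, chr11:98329596-98329895, minus strand: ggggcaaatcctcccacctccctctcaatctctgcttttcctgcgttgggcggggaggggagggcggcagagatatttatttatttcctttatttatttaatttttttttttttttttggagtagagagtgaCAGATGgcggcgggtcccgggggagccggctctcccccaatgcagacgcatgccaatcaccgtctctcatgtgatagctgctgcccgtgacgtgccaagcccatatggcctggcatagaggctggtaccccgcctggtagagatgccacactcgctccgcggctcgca

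Most domains had a single progenitor peak beneath them, and some joined several. Of the 500 domains, 379 overlapped 1 progenitor peak, 106 overlapped 2, 12 overlapped 3, 1 overlapped 4 and 2 overlapped 5, so that 121 (24.2%, interval 20.5 to 28.2) lay over 2 or more. Together they overlapped 640 of the 4919 progenitor CHD4 peaks (13.0%), and 1 progenitor peak touched more than 1 domain. Of the 641 overlapping pairs, the progenitor peak lay wholly inside the domain in 510. Between progenitor peaks joined under a domain were 141 gaps, from 450 to 28300 bp long with a median of 2850 bp. The joined progenitor peaks were thus often several kilobases apart in the list, with 88 gaps above 2000 bp and 29 above 5000 bp.

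The domains had a median width of 12825 bp and ranged from 10000 to 57650 bp. The widest progenitor peak beneath each had a median width of 5950 bp, and the ratio of the 2 widths had a median of 2.37 (quartiles 1.58 and 3.23, highest 15.5). The whole neuron CHD4 list was wider than the progenitor list, with median peak widths of 5200 and 3400 bp and totals of 29.2 and 19.4 Mb, and how far threshold or depth enters the widths was not tested. The ratio was at least 2 in 301 domains and at least 5 in 35. In 30 domains it was below 1, so there a progenitor peak was wider than the neuron domain and the word expansion does not describe them. Progenitor CHD4 covered a median of 51.9% of a domain (interval of the median 48.5 to 55.6), from 6.45% to the full length of 12 domains. Over the length of all domains, 52.4% was covered in both states, and 3.63 Mb was covered in neurons only.

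**Figure D1:**
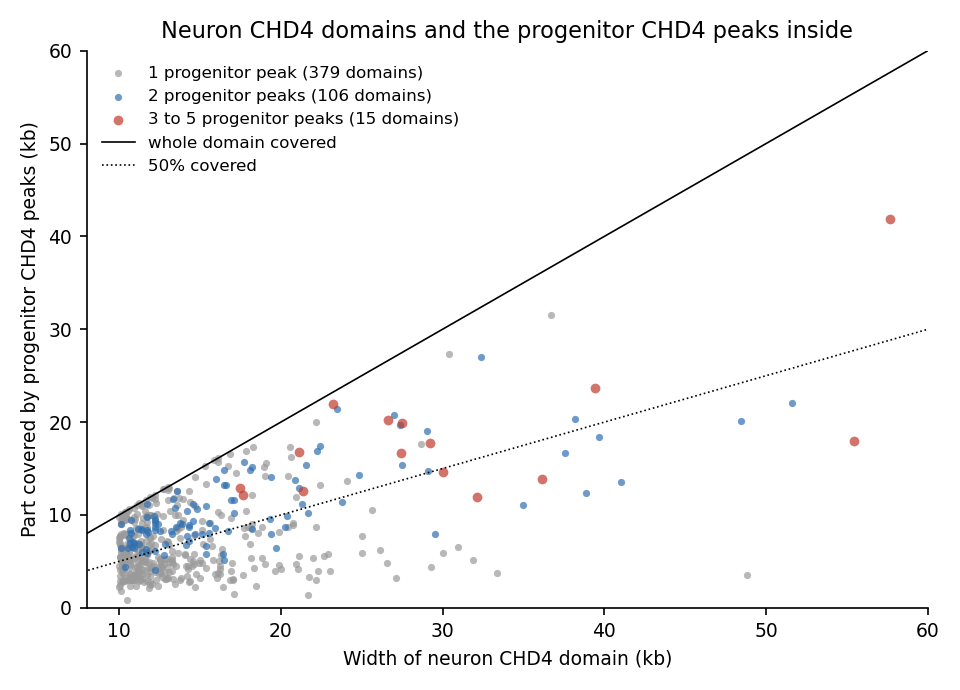
Width of each of the 500 neuron CHD4 domains (x axis, kb) against the length covered by progenitor CHD4 peaks (y axis, kb), 1 point per domain, coloured by the number of progenitor peaks beneath. The lines mark full and 50% cover: 239 domains lie at or below 50%, and 15 domains over 3 to 5 progenitor peaks reach 17500 to 57650 bp.

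Gain beyond the outermost progenitor edges was measured on each side. It was found on both sides of 349 domains, on 1 side of 128 and on neither of 23. The larger gain had a median of 4300 bp and the smaller a median of 450 bp. In 102 domains the CHD4 region reached at least 5000 bp further on 1 side and less than 1000 bp on the other, and in 117 it reached at least 2000 bp further on both.

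The place of highest CHD4 signal mostly stayed within old territory. It lay inside a progenitor CHD4 peak in 460 of the 500 domains (92.0%, 89.3 to 94.2). In 155 domains (31.0%) it fell in the same 50-bp step as the highest signal of the strongest progenitor peak beneath, and in 347 within 500 bp of it. In 89 domains it lay more than 5000 bp away. Among the 2600 narrower peaks the same step was shared by 1138 (43.8%).

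Choosing wide peaks of 1 list makes the other list look narrower, so the reverse choice was set beside it. Only 133 progenitor CHD4 peaks were at least 10000 bp wide, of which 126 overlapped a neuron CHD4 peak and 10 overlapped 2 or more. Neuron CHD4 covered a median of 98.5% of these 126 peaks, and they had a median of 0.928 times the width of the widest neuron peak on them. When instead the 500 widest progenitor peaks over neuron peaks were taken (6000 bp and wider), 10 overlapped 2 or more neuron peaks and the median cover was 99.8%. In these lists wide progenitor peaks were therefore covered nearly whole by neuron CHD4, and wide neuron domains were covered by progenitor CHD4 over about their median of 51.9%.

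At Gse1, which encodes a coiled-coil protein, 6 domains summed to 201200 bp, nearly all of it within the gene, which spans 352883 bp. A domain of 39450 bp inside the gene (chromosome 8, 120392301 to 120431750, mm10) joined 5 progenitor CHD4 peaks of 2700 to 8600 bp. It had 2 progenitor and 3 neuron p300 peaks and no H3K4me3. A domain of 11900 bp at the low-coordinate end of the gene (120224551 to 120236450) was covered in full by progenitor CHD4 and had H3K4me3 in both states and p300 in neither. Of the 6 domains, 4 had no H3K4me3 peak in either state and 5 had p300 in both.

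Other genes with several domains were Septin9, a septin of the cytoskeleton, with 4, and Camta1, Macrod1, Nol4l, Slit1 and Tspan9 with 3 each. In all, 35 coding genes had 2 or more domains at an end or in the body. Domains were also neighbours beyond single genes: 139 of the 500 lay in 57 groups whose members were at most 50000 bp apart, and 17 groups held 3 or more.

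At the other extreme were domains that reached far from a small progenitor peak. At Cbfa2t3, which encodes a corepressor of the ETO family, a domain of 48850 bp (chromosome 8, 122632351 to 122681200) lay over a progenitor peak of 3500 bp, so 7.16% of it was covered. The highest CHD4 signal was in the same 50-bp step in both states, from 122677151. No H3K4me3 or p300 peak was listed there in progenitors, while neurons had an H3K4me3 peak of 8750 bp and a p300 peak of 7600 bp, both ending at the same coordinate as the progenitor CHD4 peak (122679250). Most of the domain's length carried neither mark.

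At Tcf20, a transcriptional coregulator gene, the domain of 55450 bp (chromosome 15, 82915101 to 82970550) was 32.4% covered by 3 progenitor peaks of 4800, 7650 and 5500 bp. It held 2 progenitor and 3 neuron p300 peaks and no H3K4me3. At Shisal1 a domain of 33350 bp was 11.2% covered, and at Camta1, a calmodulin-binding transcription activator gene, one of 31900 bp was 16.1% covered. Domains with little gain included those at Ddit4, which restrains mTOR signalling under stress, at the calcium channel subunit gene Cacng4, at the actin gene Actg1 and at Bmp7, each covered in full by a single progenitor peak.

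**Figure D2:**
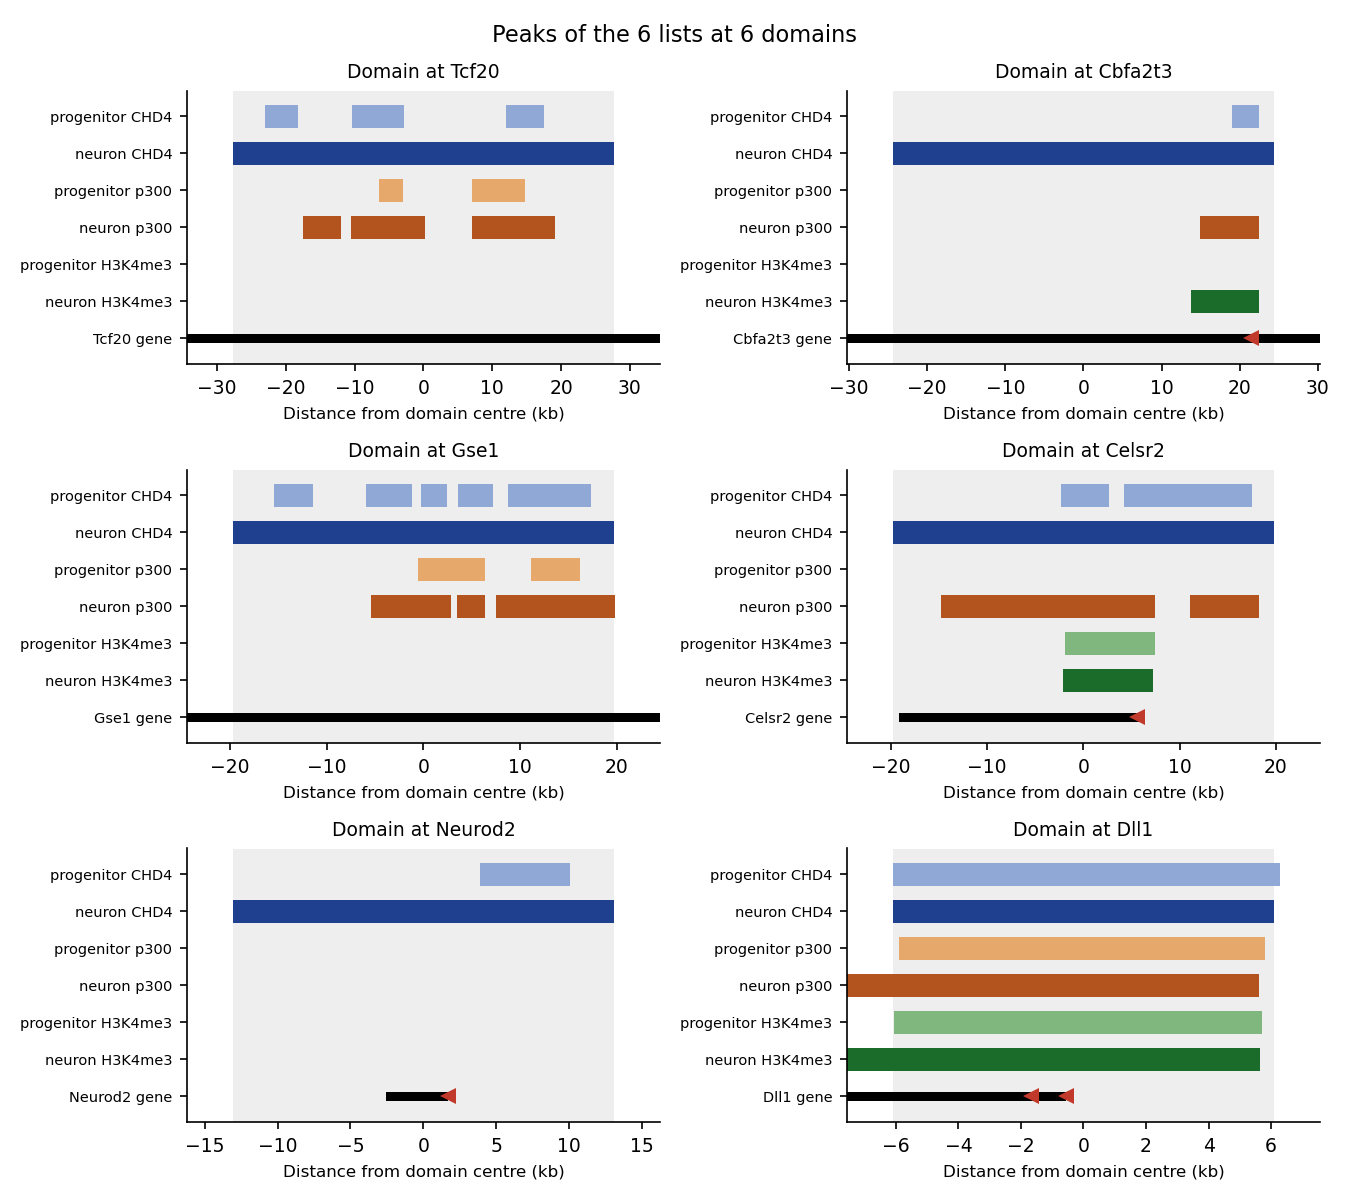
Peaks of the 6 lists at 6 domains, with distance from the domain centre in kb on the x axis and 1 row per list; grey shading is the neuron CHD4 domain, the black bar the gene span within the panel and red arrowheads RefSeq transcript starts in the domain, pointing in the direction of transcription (none was in the table within the domains shown for Tcf20 and Gse1). The Gse1 domain joins 5 progenitor peaks and the Tcf20 domain 3, the Cbfa2t3 and Neurod2 domains extend from 1 narrow progenitor peak, and at Dll1 the CHD4 peaks of both states almost coincide.

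The rest of the marks at the domains were read from lists that the choice of domains did not use, although most p300 peaks lie in CHD4 peaks. In progenitors 220 of the 500 domains (44.0%, 39.6 to 48.5) overlapped H3K4me3, against 31.9% of all neuron CHD4 peaks, and in neurons 182 (36.4%, 32.2 to 40.8), against 26.8%. Progenitor p300 was found in 398 (79.6%, 75.8 to 83.0), against 49.1%, and neuron p300 in 237 (47.4%, 42.9 to 51.9), against 20%. All neuron CHD4 peaks include those without a progenitor peak. The 2600 narrower peaks over progenitor sites had 41.5% and 34.6% for progenitor and neuron H3K4me3, and 70.2% and 21.8% for p300. The neuron p300 list holds 965 peaks and the progenitor list 3144. With both p300 lists cut to the 965 strongest peaks by total signal, and both CHD4 lists also cut to equal number, the shares were 46.7% and 47.7%, so the lower share in neurons was not present at equal list length.

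Wider regions meet more peaks by their width alone, so the single position of highest CHD4 signal was also used. That position lay in a neuron p300 peak in 229 domains (45.8%, 41.4 to 50.3), against 568 of the 2600 narrower peaks over progenitor sites (21.8%, 20.3 to 23.5) and 19.7% of all neuron CHD4 peaks. For progenitor p300 the shares were close, 72.4% (68.3 to 76.3) in domains and 69.3% (67.5 to 71.0) in narrower peaks, against 47.7% of all. For H3K4me3 the domains had lower values than narrower peaks over progenitor sites at this position, though not by overlap. The position lay in progenitor H3K4me3 in 34.4% (30.2 to 38.7) of domains and 40.7% (38.8 to 42.6) of narrower peaks, against 30% of all, and in neuron H3K4me3 in 27.6% (23.7 to 31.7) and 34.1% (32.3 to 36.0), against 25.4%.

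Over the whole range of widths, neuron p300 was more frequent at the CHD4 maximum of wider peaks and H3K4me3 less frequent. For neuron p300 the share was 5.24% (2.54 to 9.42) of 191 peaks under 2500 bp and 57.7% (46.0 to 68.8) of 78 peaks of 20000 bp and more. For neuron H3K4me3 it was 44.0% (36.8 to 51.3) and 23.1% (14.3 to 34.0) in the same groups. Width did not go with highest signal in every kind of peak. Without a progenitor peak beneath, wide peaks ranked lower by highest signal than narrower ones, with median percentiles of 23.8 and 37.6. Over progenitor sites the order was the other way, with 63.8 for domains and 56.6 for narrower peaks. With the neuron list split into 4 equal groups by highest signal, in the top group neuron p300 lay at the maximum of 155 of 197 domains (78.7%, 72.3 to 84.2) and 414 of 771 narrower peaks (53.7%, 50.1 to 57.3), and in the next group of 48.5% (38.6 to 58.6) and 16.4% (13.8 to 19.4). In the bottom group it did so in 5 of 111 domains and 5 of 515 narrower peaks. For H3K4me3 the shares were close in the bottom group and lower in domains in the top group. Progenitor H3K4me3 lay at the maximum of 55.0% of domains and 55.9% of narrower peaks at the bottom, and of 19.3% and 26.2% at the top. For neuron H3K4me3 these shares were 45.9% and 48.5%, and 13.2% and 20.5%.

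**Figure D3:**
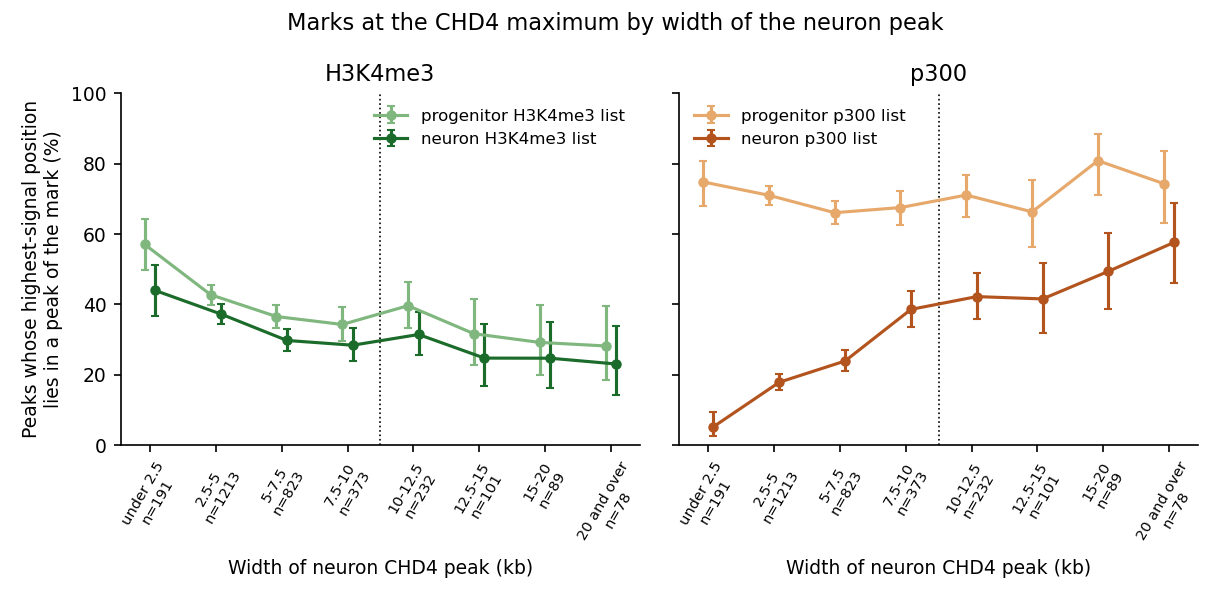
Share of neuron CHD4 peaks over progenitor sites whose highest-signal position lies in a peak of each mark list (y axis, percent), by width of the neuron peak (x axis, kb, with the number of peaks), for H3K4me3 on the left and p300 on the right; bars are exact 95% intervals and the dotted line stands at 10 kb. The neuron p300 share goes from 5.24% in the narrowest group to 57.7% in the widest, while progenitor p300 stays between 66.1% and 80.9%.

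The domains held 279 of the 965 neuron p300 peaks (28.9%, 26.1 to 31.9) and 505 of the 3144 progenitor ones (16.1%, 14.8 to 17.4). For comparison, the domains made up 26.2% of the length of the neuron CHD4 list. The p300 lists differ in length, so these shares are no contrast between states. The share of each list in all neuron CHD4 peaks is not given here. The domains held only 3.40% of the neuron and 3.20% of the progenitor H3K4me3 peaks. Those H3K4me3 peaks were wide, with a median of 7300 bp in neurons against 4250 bp for the peaks elsewhere. Of the domains with progenitor p300, 214 of 398 (53.8%, 48.7 to 58.7) had it in neurons too. For narrower peaks this was 483 of 1824 (26.5%, 24.5 to 28.6). For H3K4me3 the shares were alike, 178 of 220 (80.9%, 75.1 to 85.9) and 896 of 1078 (83.1%, 80.7 to 85.3). In neurons only, 23 domains (4.6%) had p300 and 4 (0.80%) had H3K4me3, close to the 4.78% and 0.48% of all neuron CHD4 peaks. The 4 with H3K4me3 lay at Cbfa2t3, at Spns2 and Spns3, at Gpsm1 and Dnlz, and at Osgin1 and Necab2. Another 48 domains had no peak of either mark in either state, and 12 of these had a coding gene end.

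In combination, 183 domains (36.6%) had both marks in progenitors, 215 (43%) had p300 alone, 37 (7.40%) H3K4me3 alone and 65 (13%) neither, against 23.0%, 26.1%, 8.89% and 42.0% of all neuron CHD4 peaks. In neurons these numbers were 58 (11.6%), 179 (35.8%), 124 (24.8%) and 139 (27.8%), against 3.22%, 16.7%, 23.6% and 56.4%. Narrower peaks over progenitor sites, in the same order, had 32.8%, 37.4%, 8.69% and 21.2% in progenitors. In neurons they had 3.12%, 18.7%, 31.5% and 46.7%. Most of the domains that carried both marks in progenitors thus had at most 1 of them in the shorter neuron lists.

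The marks present in both states had similar summed widths in both. At the 178 domains with H3K4me3 in both states its peaks were wider in neurons at 81 and narrower at 93, with a median ratio of 0.987. At the 214 with p300 in both states they were wider at 104 and narrower at 108, with a median ratio of 0.983. At narrower CHD4 peaks over progenitor sites the median ratios were 1.03 for H3K4me3 and 1.00 for p300. For CHD4 itself the ratio at the domains had a median of 1.86, with 466 of 500 above 1, but the choice of wide neuron peaks sets this value, so it is no contrast with the marks.

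**Figure D4:**
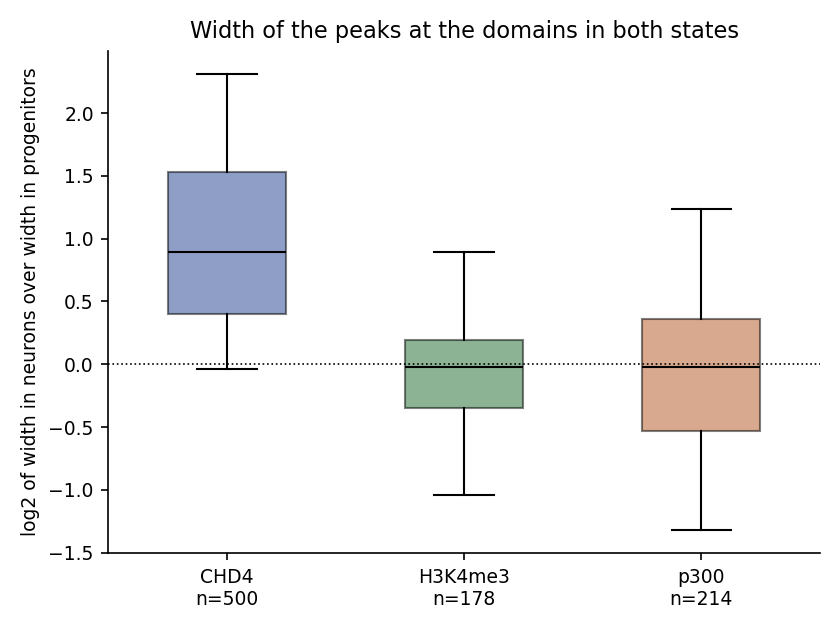
log2 of the summed peak width in neurons over that in progenitors for CHD4 (500 domains), H3K4me3 (178 domains with it in both states) and p300 (214 domains); boxes show the quartiles and the median, whiskers the 5th and 95th percentiles, and the dotted line equal width. The H3K4me3 and p300 medians lie near equal width, at ratios of 0.987 and 0.983; the CHD4 median, at a ratio of 1.86, is set by the choice of wide neuron peaks and is no contrast with the marks.

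Within the domains the marks lay mainly where CHD4 had been in progenitors. Progenitor p300 covered 62% of the length shared by both CHD4 lists and 11.5% of the newly covered length, and neuron p300 covered 37.1% and 8.65%. For H3K4me3 the difference was smaller, 33.9% and 12.7% in progenitors and 24.9% and 12.6% in neurons. Of the 488 domains with a newly covered part, neuron p300 covered a larger share of the shared part in 216 and of the new part in 14, and was equal, mostly at no cover, in 258. For neuron H3K4me3 these numbers were 133, 34 and 321. The shared part also held the highest CHD4 signal in 92.0% of domains, and its part in the difference was not tested.

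From inside the outermost progenitor edge to beyond it, p300 cover declined gradually, in steps of 250 bp. Progenitor p300 covered 64.6% of the length centred 2875 bp inside the edge, 39.6% in the last step inside, 27.4% in the first step outside and 6.75% at 3125 bp outside. Neuron p300 covered 36.3%, 25.5%, 17.8% and 5.93% at the same places, so part of the decline lay within the progenitor peak. Neuron H3K4me3 changed less, with 26.2%, 19.3%, 17.0% and 12.9%. The places rest on different numbers of edges, 498 at the innermost, 826 on either side of the edge and 374 at the outermost. In the gaps between joined progenitor peaks, 57 of 141 held a part of a neuron p300 peak and 34 a part of a neuron H3K4me3 peak, which covered 14.1% and 15.4% of the gap length.

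**Figure D5:**
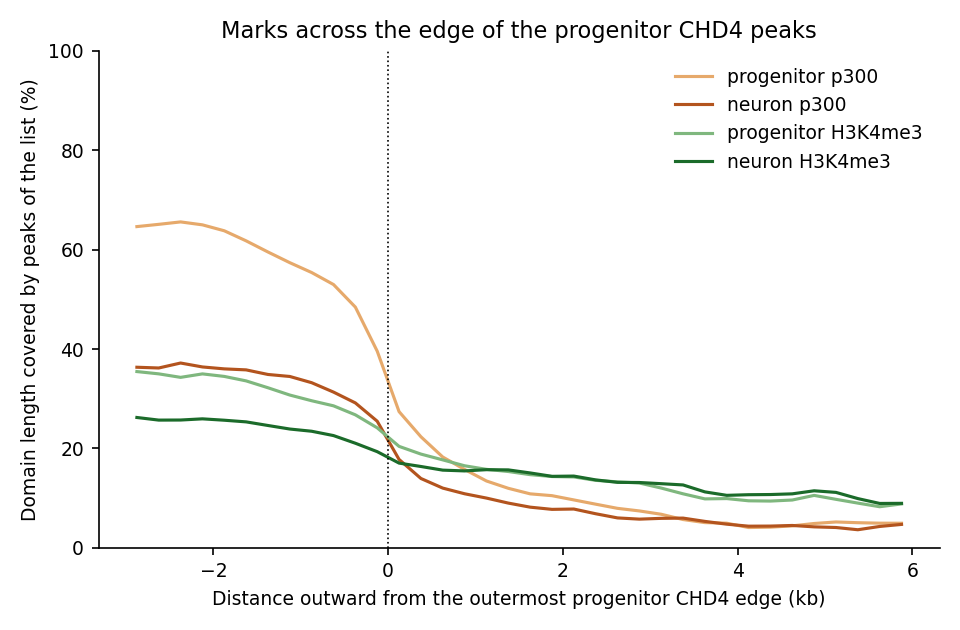
Percent of domain length covered by peaks of each mark list (y axis) against distance outward from the outermost progenitor CHD4 edge (x axis, kb). Steps are 250 bp, edges of both sides are pooled, and only edges past which the neuron domain extends are used. Negative distances run inward from that edge, where progenitor CHD4 covers 93.9% of the length at 2875 bp and 100% at 1125 bp and nearer. Both p300 lists decline from inside the progenitor peak outward, from 64.6% and 36.3% at 2875 bp inside (498 edges) to 39.6% and 25.5% in the last step inside (826 edges) and 6.75% and 5.93% at 3125 bp outside (374 edges), and the H3K4me3 lists decline less.

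Domains over several progenitor peaks carried p300 more often than those over 1. Neuron p300 was found in 163 of 379 domains over 1 progenitor peak (43.0%), in 63 of 106 over 2 (59.4%) and in 11 of 15 over 3 to 5 (73.3%). The domains of these groups had median widths of 12200, 14775 and 27500 bp, so width differed along with the number. Cover by progenitor CHD4 went the same way: of the 125 domains with the lowest cover (up to 32.9%) 36.8% had neuron p300 and 30.4% neuron H3K4me3, and of the 125 with the highest (from 73.7%) 60% and 37.6%.

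Turning to genes, 271 domains (54.2%, 49.7 to 58.6) lay within 1000 bp of an annotated end of a protein-coding gene, against 36.4% of all neuron CHD4 peaks. A further 137 (27.4%) lay inside a gene body and 92 (18.4%) outside coding genes, against 31.7% and 31.9% of all neuron CHD4 peaks. Width adds to such counts, and the position of highest signal was at a gene end in 109 domains (21.8%, 18.3 to 25.7), against 29.7% (28.0 to 31.5) of narrower peaks over progenitor sites and 22.8% of all neuron CHD4 peaks. The 500 domains lay within 1000 bp of an end of 436 genes and in the body alone of 106 more, and 87 domains held at least 1 gene whole. An end here is either end of the gene span, and a domain in a gene body can hold another annotated start, as at Cbfa2t3. These places therefore do not separate promoters from the rest of the gene. Marks followed place. H3K4me3 was present in neurons at 59.0% (52.9 to 65.0) of domains at gene ends, 10.2% (5.70 to 16.6) of those in gene bodies and 8.70% (3.83 to 16.4) of those outside, and neuron p300 at 38.0% (32.2 to 44.1), 56.2% (47.5 to 64.7) and 62% (51.2 to 71.9).

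The table of promoter windows gives strand and covers 17492 coding genes. It placed 314 transcript starts of 242 genes whole within 191 domains. Some starts of the same gene lie close together, and the intervals count them as separate, so they are too narrow to that extent. Of these starts, 237 (75.5%, 70.3 to 80.1) were already in a progenitor CHD4 peak, as at Dll1 and Tubb3, and 77 were newly covered, as at Efna3 and Neurod2. H3K4me3 was present in both states at 172 of the 237 and at 31 of the 77. It was absent from both lists at 27 and 38. Neuron p300 lay at 55 of the 237 (23.2%) and 7 of the 77 (9.09%). For 117 domains with starts of a single gene and a start in progenitor CHD4, the gain was larger toward the gene body in 76, larger upstream in 38 and equal in 3, with medians of 2700 and 950 bp.

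The promoter windows in domains had a median GC content of 63.7%, as had the 1478 windows in other neuron CHD4 peaks, against 56.3% over all 21263 windows. CAGCTG was present in 61 of the 314 windows (19.4%, 15.2 to 24.2), in 14.9% of windows in other neuron peaks and in 15.6% of all. CAGATG was present in 14.0% (10.4 to 18.4), 9.47% and 14.6%, and TGGGAA in 26.8% (21.9 to 32.0), 20.9% and 24.5%. Both strands were searched, and in no window of a domain did matches to different ones of these 3 overlap. The other 4 motifs searched were ACAATG (SOX), TGANTCA (AP-1), ATTTGCAT (octamer) and the E-box CACGTG, present in 8.92%, 5.41%, 3.18% and 9.87% of windows in domains, in 6.22%, 3.11%, 2.03% and 9.07% of windows in other neuron peaks and in 11.0%, 6.99%, 1.66% and 7.84% of all. For all 7 motifs the interval of the share in domains included the value over all windows. The value in other neuron peaks, whose median GC content was the same, lay just below that interval for the first pair of E-boxes, the RBPJ core and the AP-1 motif (3.19 to 8.53 for the last) and inside it for the other 3. Overlapping windows of the same gene were counted as separate, so these intervals are too narrow and little rests on values just outside them. None of these differences was tested, and a match is only a match of letters.

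Among the genes of 18 lists chosen for this tissue, domains were found at few members of any list, against 1.99% of all coding genes with a domain at an end and 2.48% with one at an end or in the body. For Eph receptors and ephrins, contact signals of axon guidance, 3 of 22 had a domain at an end: Ephb2, Efna3 and Efna4. At Efna4 the domain of 16300 bp lay over a progenitor peak that covered 35.0% of it. At Ephb2 there were 2 domains, of 12400 bp inside the gene and 10600 bp at the end near 136647536 on chromosome 4, covered by 19.4% and 35.4%, both with p300 and without H3K4me3 in each state. At Efna3 the domain of 12550 bp (chromosome 3, 89311051 to 89323600) was 35.5% covered and had H3K4me3 but no p300 in both states.

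Semaphorins, plexins and neuropilins had 4 of 31, with Sema4b and Sema6c at an end and Plxna1 and Plxnd1 in the body. At Plxna1, a semaphorin coreceptor gene, a domain of 22200 bp was 13.3% covered and had p300 in progenitors only. Slit, Robo and netrin genes had 2 of 22, Slit1 and Draxin, both of which encode repellents of growing axons. Slit1 carried 3 domains of 29300, 16750 and 11650 bp, covered by 15.2%, 91.0% and 54.5%, all with p300 in both states and none with H3K4me3.

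Notch genes had 3 of 22. The ligand gene Dll1 had a domain of 12200 bp (chromosome 17, 15371401 to 15383600) inside a progenitor peak of 12400 bp, with both marks in both states. At the target gene Hes5 a domain of 22200 bp was 90.3% covered, and at Lfng, a modifier of Notch receptors, one of 13950 bp was 68.1% covered by a wider progenitor peak. Both had H3K4me3 in each state and p300 in progenitors only. The NuRD list had 1 of 15, Mta1, with a domain of 10900 bp near its end. That domain began at 113137251 on chromosome 12, just past the gene, which ends at 113137206, and it held Crip2 whole. It had both marks in both states.

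Of 32 neuronal transcription factor genes 1 had a domain, Neurod2, a bHLH factor of differentiating neurons. Its domain of 26150 bp (chromosome 11, 98314901 to 98341050) contained the whole gene and was 23.7% covered by a progenitor peak of 6200 bp beside the gene. Neither mark was listed in it in either state. Neuronal cytoskeleton and axon genes had 1 of 31, the tubulin gene Tubb3, where the domain of 12350 bp was 81.8% covered and had both marks in both states. Synapse and channel genes had 3 of 33: Cacng4 at an end, and Syt2 and Nrxn2 in the body. Of 30 progenitor regulators, which include Sox2 and the Id genes, 0 had a domain, a count near the 1.99% of all coding genes, and 9 had a neuron CHD4 peak of another kind at an end, against 2177 of all 21887 coding genes.

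Cell cycle progression genes had 2 of 30, E2f2 and the replication licensing gene Cdt1, and cell cycle exit genes 2 of 16, Gadd45b and Gadd45g. At Gadd45b the domain of 19050 bp had H3K4me3 in progenitors only and p300 in both states. Cadherins, integrins and related adhesion genes had 3 of 26. Among them Celsr2, an atypical cadherin of planar cell polarity, had a domain of 39650 bp (chromosome 3, 108390201 to 108429850) over 2 progenitor peaks of 5050 and 13300 bp. H3K4me3 peaks there were 9350 and 9400 bp wide in progenitors and neurons. p300 was listed there in neurons only, in peaks of 22250 and 7200 bp, and the highest CHD4 signal had moved to a step from 108401901 that lay outside progenitor CHD4 and inside the wider p300 peak. BMP, TGF-beta and Wnt genes had 1 of 36, Bmp7, and remodellers outside NuRD 1 of 22, Smarcd3. Markers of hair cells (20 genes), glia (16), mesenchyme (16) and blood or endothelium (14) had no domain.

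At the width limit, 5 domains were exactly 10000 bp wide. They lay 66376 bp from Gadd45g (the nearest coding gene), at Lrp5, in Nol4l, at Anp32e and at Coq8b and Numbl, and were 97.5%, 71%, 22%, 45.5% and 75.5% covered. Just below the limit, peaks of 9950 bp lay at Cdc6 and Rara and at Osbpl2, and were 100% and 38.2% covered.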

How the data were processed

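Proliferating iMOPs and iMOP-derived neurons were profiled by CUT&Tag with paired reads of 150 bp, per the labels' protocols. Bowtie2, SEACR and deepTools, with the mm10 build, appear in the submitters' processing notes without versions or roles. The use of IgG, the scaling, and whether a list pools libraries are not given in the sources used here. Each deposited list gives positions, total and highest signal per peak. These values served for ranking inside 1 list and were never compared between lists. All but 6 coordinates fall on a 50-bp grid, and positions are printed counted from 1.

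Overlaps, lengths and exact intervals were computed in Python 3.11.15 (SciPy 1.17.1, pandas 2.3.3, numpy 2.4.6), and figures drawn with matplotlib 3.10.9. The interval functions were tested on simulated data with 150 planted domains, all recovered. Gene spans (21887 coding genes, without strand) and promoter windows came from RefSeq tables of GRCm38.p6. The windows were absent for some genes. All 431 genes of the 18 lists were found.

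The domains and gene lists were chosen with earlier results of these data known. Named domains were the 12 widest, the 10 over most progenitor peaks, the 8 with most new length, the 8 with the highest percent covered, the 8 with the strongest neuron p300, those at list genes and those nearest the width limit (ties added after their values were seen); some are left out for length. Genes with 3 or more domains, the 4 domains with H3K4me3 in neurons only and the printed promoters were chosen after their values were seen. Alternatives were other widths, overlap rules, stronger peaks, lists of equal length and other gene windows. Some loci are not reported here.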

Additional observations from a re-analysis of the deposited data

How the results depend on the processing

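Of 83 recomputed values for 16 results, 54 stayed within the interval of the reported value (for the number of domains, within 1.5 times) and 29 did not. Other width minimums moved 9 of 16 results each, and stronger peaks moved 10 of 15. For percents of length covered, that interval treated the percent as a share of the 500 domains. It is a rough yardstick there and does not measure the error of a length. With a width minimum of 5000 bp there were 1696 domains. Of these 8.73% lay over 2 or more progenitor peaks, median cover by progenitor CHD4 was 61.0%, and the shares with progenitor and neuron H3K4me3, progenitor and neuron p300 and a gene end were 39.5%, 32.1%, 71.6%, 34.1% and 45.3%; neuron p300 covered 30.4% of the shared length. With 15000 bp there were 167 domains, 40.1% over 2 or more progenitor peaks, median cover was 47.0%, and 87.4% had progenitor and 55.7% neuron p300. Shared length was then covered by progenitor H3K4me3 at 28.5% and neuron p300 at 41.8%, and new length by progenitor and neuron H3K4me3 at 8.19% and 8.68%. In another alternative the stronger 50% by total signal was kept of the progenitor CHD4 list and the mark lists, with the neuron CHD4 list uncut. Of the 394 domains then left, 16.0% lay over 2 or more progenitor peaks, and median cover was 55.8%. Progenitor and neuron H3K4me3 were in 36.0% and 27.4% and p300 in 70.1% and 36.0%. The shared length covered was then 28.4% and 20.5% for H3K4me3 and 56.4% and 29.2% for p300. With lists of equal length progenitor p300 was in 46.7% of domains. Each of these alternatives uses fewer or other peaks by construction. In all 20 pairs computed, a mark covered more of the shared than of the new length. These pairs include the main setting and the numbered chromosomes with X and Y, which kept 499 domains. Requiring 50% of the smaller peak or allowing a gap of 1000 bp, each run for 7 results, other gene windows, run for the share at gene ends only, and, chosen after seeing the data, numbered chromosomes with X and Y, run for all 16, left the results they were run for within their intervals. The 2 overlap rules and the choice of chromosomes kept 498 to 500 domains, so little could change under them. No paired analysis was possible because each group holds 1 library and no result comes from a test. Without read counts, depth limits cannot be given.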

Other observations

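The domains were unevenly placed among chromosomes. Chromosome 11 held 72 of the 500 (14.4%) and 9.11% of all neuron CHD4 peaks, chromosome 8 held 39 (7.80%) and 5.41%, and chromosome 4 held 45 (9%) and 6.78%. Chromosome X held none of the domains and 38 of the 4599 neuron peaks, and chromosome Y none and 3. A single domain lay on an unplaced contig. On chromosome 8, the groups with most members held 5 domains each. All those of the first lay at Gse1. The other group, from 122632351 to 122822300, included domains at Cbfa2t3 and Acsf3, but neither gene had more than 1 domain.

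The 48 domains without a peak of either mark in both states were up to 30950 bp wide and had a median cover by progenitor CHD4 of 32.3%, against 51.9% over all domains. Their median rank by total CHD4 signal was the 82.5th percentile of the neuron list, against the 90.7th for all domains. The 23 domains with p300 in neurons only had a median cover of 41.2%, and 7 of them lay at a gene end.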
